A study of Mus musculus with 12 samples.

Results

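The genes described here were the chondroitin sulfate proteoglycans (CSPGs) of the injured mouse retina, their receptors and a glycoprotein that binds them, and they were chosen by name as 10 of the 25655 genes in the deposited tables. They were the secreted lecticans aggrecan (Acan), brevican (Bcan), neurocan (Ncan) and versican (Vcan), the membrane-spanning proteoglycans NG2 (Cspg4), neuroglycan C (Cspg5) and phosphacan/RPTPζ (Ptprz1), the receptor tyrosine phosphatases PTPσ (Ptprs) and LAR (Ptprf), and tenascin-R (Tnr). All 10 had at least 1 count in every library, so all passed the filter for testing in every comparison. CSPGs are core proteins that carry long chains of sulfated chondroitin, and in the central nervous system the lecticans fill the space between cells together with hyaluronan, link proteins and tenascins. After injury, glial cells deposit them around the lesion, where the chondroitin sulfate chains halt growing axons, in part by binding PTPσ and LAR on the axon. Optic nerve crush (ONC), which severs the axons of retinal ganglion cells, is a classic setting in which this barrier is studied. The libraries here were made from whole retina, so the lesion site in the nerve was not sampled.

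The retinas came from wild-type C57BL/6J mice aged 8 to 10 weeks whose optic nerve had been crushed, so every group, the control included, carried the injury, and an uninjured retina was not analysed here. A single intravitreal injection followed the crush, of PBS as the control, of the cholesterol-lowering drug fluvastatin, which blocks HMG-CoA reductase, of MBV, the matrix-bound nanovesicles recovered from porcine urinary bladder matrix, or of both agents, and whole retinas were taken 2 days later. Counts were available by named library for 9 of the 12 samples, 3 each of PBS, fluvastatin and MBV. The 3 retinas given both agents were not analysed here, because their count columns did not name a library. The study calls its libraries biological replicates but the labels do not name the animal behind each, so the p-values measure the spread between these libraries.

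The total count on genes was between 21349516 and 30992040 per library. The library numbers in the labels run from 1 to 6 and occur in 2 sets, with PBS in one and both fluvastatin and MBV in the other, so that library set cannot be told apart from treatment when either agent is compared with PBS, whereas MBV and fluvastatin lay in the same set. Counts are given as normalised counts (CPM), scaled to library size with TMM, and comparisons are edgeR quasi-likelihood tests over all genes with a false discovery rate (FDR) threshold of 0.05. In whole retina, fewer cells of a type and less RNA per cell cannot be told apart. In the MBV libraries, 6 of 7 lens markers were higher than in PBS, with summed levels of 55.9 to 144 CPM against 2.09 to 6.14 CPM in PBS and 2.80 to 19.8 CPM with fluvastatin, where Grifin was at 0 in library 3, and their part in the results below was not tested. Of 9 pigment epithelium and melanocyte markers, 2 were called higher and 5 lower with fluvastatin, and 1 higher and 5 lower with MBV. Their sums were 368 to 384 CPM with PBS, 270 to 332 with fluvastatin and 241 to 322 with MBV. Of 5 surface epithelium markers, 0 were called with fluvastatin and 4 were lower with MBV, with sums of at most 7.1 CPM in any library. The part of these tissues in the results was not tested. The retinal identity of the samples was clear from photoreceptor and bipolar cell markers, of which none was at 0. Their summed level was 30470 to 32990 CPM with PBS, 26900 to 28280 with fluvastatin and 20460 to 28500 with MBV, and of 7 markers 1 was called higher and 2 lower with fluvastatin and 3 lower with MBV, and their part in the results was not tested.

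The largest rise among the called genes was that of Ncan and the largest fall that of Vcan, and the 250 bases before the RefSeq transcription start of these genes are shown to set the pair side by side. The sequences are from RefSeq (GRCm38.p6) and were placed by exact match in GRCm39, both on the minus strand, Ncan at chr8:70573495-70573744 and Vcan at chr13:89890632-89890881. Capitals mark the GC box (GGGCGG, or CCGCCC on the opposite strand), the CCAAT box (CCAAT or ATTGG) and the TATA core (TATAA or TTATA).
Ncan promoter: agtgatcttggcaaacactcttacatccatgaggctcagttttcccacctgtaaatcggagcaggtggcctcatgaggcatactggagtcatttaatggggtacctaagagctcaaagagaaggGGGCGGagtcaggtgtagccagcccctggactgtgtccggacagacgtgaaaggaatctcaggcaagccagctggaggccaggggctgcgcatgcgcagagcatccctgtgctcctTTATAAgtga
Vcan promoter: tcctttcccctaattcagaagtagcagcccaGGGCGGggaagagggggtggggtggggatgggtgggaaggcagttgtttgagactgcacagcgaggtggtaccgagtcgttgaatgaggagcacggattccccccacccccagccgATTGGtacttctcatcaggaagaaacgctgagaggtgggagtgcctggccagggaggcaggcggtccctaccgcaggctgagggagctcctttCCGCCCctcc
Both windows held a GC box, as did 32.7% of the 32851 promoter windows in the table. In Ncan the GC box lay 126 to 121 bases before the start, and in Vcan there were GC boxes 219 to 214 bases and 10 to 5 bases before it. The Ncan window also held a TATA core on both strands in overlap, from 10 to 5 bases before the start, and such a core was found in 22.8% of all windows. In the deposited tables the Ncan gene begins upstream of the RefSeq start, so this core lies inside the gene span given for Ncan below. The Vcan window held a CCAAT box on the opposite strand, 103 to 99 bases before the start, which 33.8% of all windows had on either strand. The GC content was 54.4% in the Ncan window and 62.4% in the Vcan window, against a median of 52.4% over all windows. Of the 10 genes, 9 had a promoter in the table and Cspg5 did not. These matches are a description of letters in a window and were not tied to the count data.

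Levels of different genes were compared only per length, as CPM per kilobase of annotated exon. In the PBS retinas Ptprs was highest at 20.7 ± 1.30 CPM per kb (SD, n = 3), ahead of Tnr at 17.8 ± 0.737, Ptprf at 14.5 ± 0.946 and Cspg5 at 9.66 ± 0.501. The receptors and tenascin-R thus stood above every lectican. Ptprz1 followed at 5.47 ± 0.752 CPM per kb and Vcan at 3.82 ± 0.576, and the other lecticans were lower, with Ncan at 1.49 ± 0.0829, Bcan at 0.359 ± 0.00676 and Acan at 0.0503 ± 0.0100, while Cspg4 stood at 0.194 ± 0.0262. No neighbours in this order overlapped across the PBS libraries. The order was the same with fluvastatin and with MBV except that Vcan dropped below Ncan, and there the spread of Vcan was wide enough to overlap Ncan in both groups and Bcan in the MBV group. Tnr and Ptprf also overlapped in the MBV group. The plot of levels per length shows the span from Ptprs to Acan on a log axis.

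**Figure D1:**
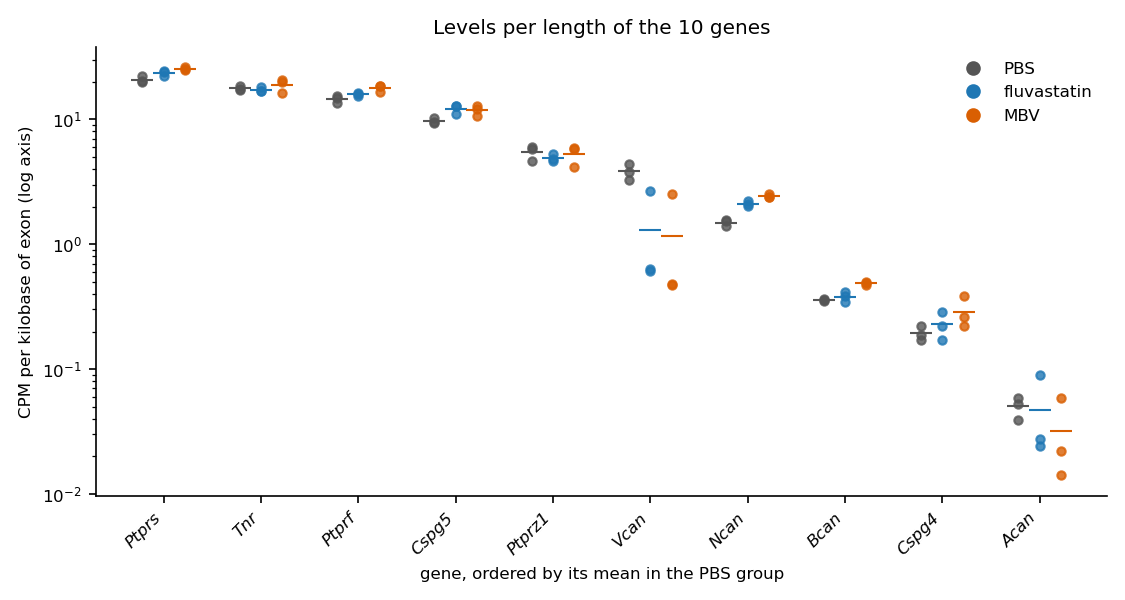
CPM per kilobase of exon (log axis) for the 10 genes, ordered by their PBS mean, with 1 point per library and a bar at the mean of 3 libraries for PBS (grey), fluvastatin (blue) and MBV (orange). Ptprs, Tnr and Ptprf lie highest and Acan lowest in all 3 groups, and Vcan is the gene whose treated libraries scatter most widely.

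With fluvastatin, Ncan, Cspg5 and Ptprs rose and Vcan fell against PBS, and the other 6 genes did not pass the test. That is 4 of 10 genes at an FDR under 0.05, 3 higher and 1 lower, where 19.6% of all 18818 genes tested were called, 9.36% higher and 10.2% lower. The count was between 2 and 5 when single libraries were left out, and was 2 without either of PBS libraries 1 and 2 or fluvastatin libraries 2 and 3. The groups did not overlap for 5 of the 10 genes, against 36.6% of all genes. The median log2 fold change was 0.112 over the 10 genes and -0.00716 over all genes.

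With MBV, Ncan, Bcan, Cspg5, Ptprs and Ptprf rose and Vcan fell against PBS. That is 6 of 10 genes, 5 higher and 1 lower, where 26.1% of all 18897 genes were called, 12% higher and 14.1% lower. The count was 3 when PBS library 1 or 2 or MBV library 1 or 2 was left out, and between 3 and 6 over all libraries left out in turn. The groups did not overlap for 6 of the 10 genes, against 41.3% of all genes, and the median log2 fold change was 0.280 over the 10 genes and 0.00951 over all genes. Vcan was the 1 gene of the 10 that also had a fold-change of at least 2, with fluvastatin and with MBV, where 1.17% and 1.95% of all genes met both criteria. Both comparisons share the 3 PBS libraries, so the values that follow are given side by side and a likeness between them is no second observation.

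**Figure D2:**
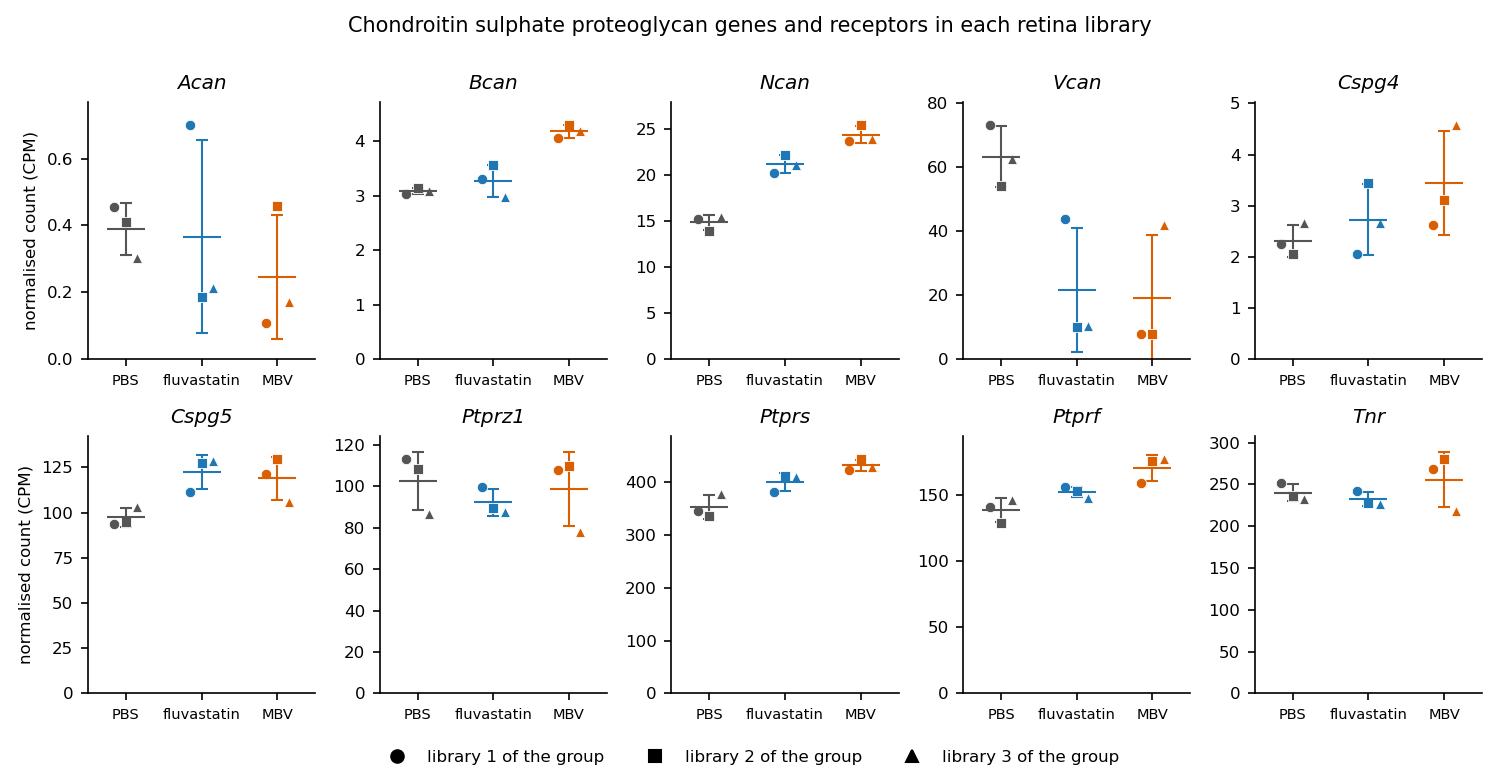
CPM of each gene in each library, on axes that start at 0, with the mean and SD of 3 libraries for PBS (grey), fluvastatin (blue) and MBV (orange); marker shapes give the library's number within its group, and the SD bar of Vcan with MBV is cut at 0. All treated libraries lie above all PBS libraries for Ncan, Cspg5, Ptprs and Ptprf, and below them for Vcan.

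Ncan, a lectican made by neurons and reactive astrocytes that binds neural cell adhesion molecules and tenascins, gave the steadiest change (GRCm39 chr8:70545735-70573523, minus strand). Its CPM was 15.2, 13.9 and 15.5 with PBS, 20.2, 22.2 and 21.1 with fluvastatin, and 23.7, 25.4 and 23.9 with MBV. All treated libraries were above all PBS libraries, and the MBV libraries were also above the fluvastatin libraries. The rise was 1.42-fold with fluvastatin (log2 fold change 0.51, SE 0.0732, FDR 0.00179) and 1.63-fold with MBV (0.70, SE 0.0658, FDR 0.00048). It was called in each comparison under all 12 alternative settings other than the fold minimum of 2, which it did not reach.

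Bcan, a lectican of perineuronal nets and of the surface of astrocytes and oligodendrocytes, was low (chr3:87894838-87907537, minus strand). Its CPM was 3.02, 3.14 and 3.08 with PBS, 3.30, 3.55 and 2.97 with fluvastatin, and 4.06, 4.29 and 4.19 with MBV, from 70 to 111 counts per library. The MBV libraries were above all others and the fluvastatin libraries overlapped PBS. The rise with MBV was 1.35-fold (log2 fold change 0.43, SE 0.131, FDR 0.0395), and with fluvastatin the log2 fold change was 0.09 (SE 0.146, FDR 0.713). The MBV call was near the threshold and was lost when any single library was left out, with FDR values of 0.0570 to 0.133.

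Vcan, a large lectican of provisional matrix that hyaluronan anchors around migrating and proliferating cells, changed most and varied most (chr13:89803431-89890628, minus strand). Its CPM was 73.0, 54.0 and 62.5 with PBS, 43.8, 10.1 and 10.4 with fluvastatin, and 7.82, 7.95 and 41.8 with MBV. The groups did not overlap, but fluvastatin library 1 and MBV library 3 were the treated libraries nearest to PBS and the other 4 were far below it. Against PBS, Vcan was 2.95-fold lower with fluvastatin (log2 fold change -1.56, SE 0.439, FDR 0.0314) and 3.33-fold lower with MBV (-1.73, SE 0.529, FDR 0.0393). Without fluvastatin library 1 the log2 fold change was -2.62 (FDR 4.88e-08) and without MBV library 3 it was -3.01 (FDR 6.70e-08). Without any other library the call was lost in both comparisons, with FDR values of 0.0501 to 0.117.

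The uneven drop of Vcan was shared by other genes, library by library. Over the 9 libraries and 13971 genes with a mean of at least 1 CPM, the genes most like Vcan in log2(CPM + 0.5) were Gja1, the gap junction protein connexin 43 (Pearson r = 0.997), and Gpx3, a secreted glutathione peroxidase (r = 0.992). In all, 63 genes had an r of at least 0.95 with it. Gja1 was at 73.3, 45.8 and 64.2 CPM with PBS, 43.7, 8.75 and 10.9 with fluvastatin, and 6.47, 7.45 and 41.5 with MBV. Gpx3 was at 162, 99.3 and 144 CPM with PBS, 70.0, 3.59 and 4.66 with fluvastatin, and 3.25, 4.34 and 42.6 with MBV. Both were thus high in the same 5 libraries as Vcan. Best2, a bestrophin channel known from the non-pigmented ciliary epithelium and chosen after its values were seen, had 128, 104 and 84 counts with PBS, 69, 0 and 2 with fluvastatin, and 6, 1 and 62 with MBV. A count of 0 allows up to 3 counts, for counting error only.

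The summed levels of Müller glia and of fibroblast markers differed between the same libraries as Vcan. The summed level of 7 Müller glia markers was 3714 to 4338 CPM with PBS, 3439 in fluvastatin library 1 and 3404 in MBV library 3, and 1704 to 2406 in the other 4 treated libraries. None of these markers was at 0, and 6 of 7 were called lower with fluvastatin and 3 of 7 with MBV, or 3 of 7 with each agent with the GC content offset. The sums of 5 astrocyte markers, none at 0, were 106 to 163 CPM with PBS, 103 to 143 with fluvastatin and 89.2 to 114 with MBV. Gja1, which followed Vcan, is among these 5, so the sum mixes it with markers that did not share its fall. Of the 5, only Gja1 was called lower with fluvastatin (FDR 0.0421), and 0 were called with MBV. The median log2 fold change of the 5 was 0.09 with fluvastatin and 0.07 with MBV. Nes, the filament protein nestin, went the other way, at 10.7, 7.51 and 13.0 CPM with PBS, 17.8, 50.02 and 69.0 with fluvastatin, and 52.8, 76.2 and 17.3 with MBV. Summed levels of 7 monocyte and macrophage markers were 13.1 to 27.5 CPM with PBS, 10.5 to 13.3 with fluvastatin and 11.7 to 87.2 with MBV, highest in MBV library 3, and fluvastatin library 1 stood at 10.8 CPM. Of these 7, 1 was called lower with fluvastatin and none of 7 was called with MBV, and Ly6c2 was at 0 in PBS library 2. For 5 fibroblast markers the sums were 20.7 to 26.3 CPM with PBS, 24.1 in fluvastatin library 1, 31.1 in MBV library 3, and 9.50 to 18.3 in the other treated libraries, with 1 called higher and 2 lower with fluvastatin and 2 higher and 1 lower with MBV, Dpt at 0 in PBS libraries 2 and 3 and MBV library 3, and Lum at 0 in MBV library 2. The median log2 fold change of the 5 fibroblast markers was -0.59 with fluvastatin and 0.66 with MBV, so with MBV their sum did not stand for most of them. The part of these cell types in the Vcan values was not tested.

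**Figure D3:**
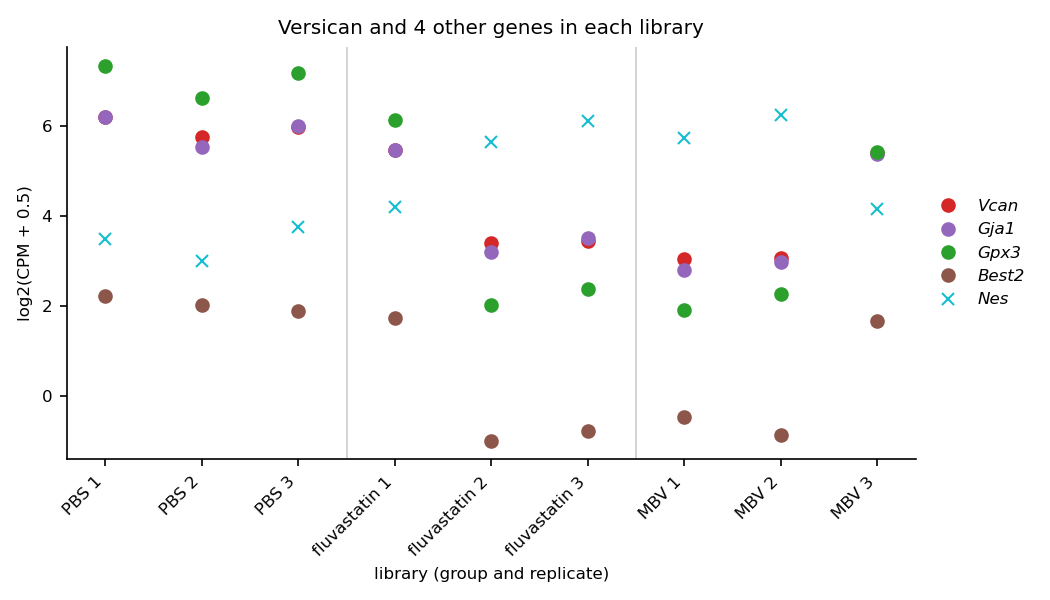
Level of Vcan, Gja1, Gpx3, Best2 and Nes in each of the 9 libraries, as log2(CPM + 0.5), 1 point per gene and library. Vcan, Gja1, Gpx3 and Best2 are high in the 3 PBS libraries, fluvastatin library 1 and MBV library 3 and low in the other 4 libraries, and Nes is the reverse.

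Acan, the lectican of cartilage and of perineuronal nets, was close to the limit of detection, with 3 to 17 counts per library (chr7:78703231-78764847, plus strand). Its CPM was 0.455, 0.409 and 0.304 with PBS, 0.700, 0.187 and 0.212 with fluvastatin, and 0.110, 0.457 and 0.171 with MBV. The groups overlapped throughout. The log2 fold change was -0.11 with fluvastatin (95% confidence interval -1.29 to 1.07) and -0.72 with MBV (-1.95 to 0.51). A fall of 2-fold thus lay inside both intervals, and a rise of 2-fold inside the fluvastatin interval only.

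Among the membrane-spanning proteoglycans, Cspg5, a neuronal proteoglycan with an EGF-like domain, rose with both agents (chr9:110072851-110091644, plus strand). Its CPM was 93.9, 94.97 and 103 with PBS, 112, 127 and 128 with fluvastatin, and 121, 129 and 106 with MBV. Every treated library was above every PBS library, although MBV library 3 was only just so. Fluvastatin library 1 and MBV library 3, the treated libraries nearest to PBS for Vcan, were also the nearest for Cspg5. Cspg5 thus ran opposite to Vcan over the 9 libraries (Pearson r = -0.932, which includes the difference between PBS and treated groups). The source of this uneven rise of Cspg5 was not tested. The rise was 1.26-fold with fluvastatin (log2 fold change 0.33, SE 0.0625, FDR 0.00556) and 1.21-fold with MBV (0.28, SE 0.0724, FDR 0.0210). Neither rise reached the fold minimum of 2. Of the 12 other alternative settings, the fluvastatin call was kept under all 12, and the MBV call was kept under 6 and was lost, with FDR values up to 0.0872, when PBS library 1 or 2 or MBV library 1 or 2 was left out.

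Cspg4, or NG2, marks pericytes and oligodendrocyte precursors (chr9:56772317-56807154, plus strand). Its CPM was 2.24, 2.05 and 2.66 with PBS, 2.06, 3.44 and 2.67 with fluvastatin, and 2.63, 3.11 and 4.58 with MBV. The groups overlapped and the gene was not called, with a log2 fold change of 0.24 for fluvastatin (95% confidence interval -0.24 to 0.72, FDR 0.488) and 0.56 for MBV (0.04 to 1.08, FDR 0.107). MBV library 3 was highest for Cspg4 and also for the sum of 7 pericyte and smooth muscle markers, which was 80.9 to 108 CPM with PBS, 92.6 to 110 with fluvastatin and 92.7 to 116 with MBV, with none at 0. Of those markers 1 was lower with fluvastatin and 2 were higher with MBV. The sum of 8 oligodendrocyte lineage markers was also highest in MBV library 3. It was 80.3 to 81.7 CPM with PBS, 81.05 to 88.45 with fluvastatin and 89.2 to 93.6 with MBV. In each library 1 to 3 of the 8 were at 0. With fluvastatin 1 was called higher and with MBV 2, or 0 and 1 with the GC content offset. The part of these cell types in the Cspg4 values was not tested.

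Ptprz1 encodes RPTPζ, a glial receptor phosphatase whose extracellular part in secreted form is the proteoglycan phosphacan (chr6:22875501-23052915, plus strand). Its CPM was 113, 108 and 86.5 with PBS, 99.5, 89.5 and 87.5 with fluvastatin, and 108, 109.9 and 77.8 with MBV. The groups overlapped. The log2 fold change was -0.16 for fluvastatin (95% confidence interval -0.36 to 0.05, FDR 0.277) and -0.07 for MBV (-0.38 to 0.24, FDR 0.741). PBS library 3 and MBV library 3 were the lowest of their groups, and without PBS library 3 the fluvastatin value was called lower (log2 fold change -0.26, FDR 0.0209).

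The receptors differed by small amounts between groups that did not overlap. Ptprs encodes PTPσ, the receptor through which chondroitin sulfate holds back axons (chr17:56719426-56783483, minus strand), and its CPM was 345, 336 and 378 with PBS, 381, 412 and 409 with fluvastatin, and 423, 443 and 429 with MBV. Every fluvastatin library was above PBS and every MBV library above fluvastatin. It rose 1.13-fold with fluvastatin (log2 fold change 0.18, SE 0.0526, FDR 0.0352) and 1.22-fold with MBV (0.28, SE 0.0501, FDR 0.00407). The fluvastatin call was lost when PBS library 1 or 2 or fluvastatin library 2 or 3 was left out, with FDR values up to 0.154, and the MBV call was kept without any library.

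Ptprf encodes LAR, the relative of PTPσ that also binds chondroitin sulfate (chr4:118065410-118148602, minus strand). Its CPM was 141, 129 and 146 with PBS, 156, 153 and 148 with fluvastatin, and 159, 175 and 177 with MBV. Each treated group lay above PBS, the lowest fluvastatin library only just above the highest PBS library. The rise was 1.22-fold with MBV (log2 fold change 0.29, SE 0.0593, FDR 0.00757), and fluvastatin did not pass the test at 0.14 (SE 0.0520, FDR 0.0957), although without PBS library 3 it was called higher (0.18, FDR 0.0494).

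Tnr encodes tenascin-R, which crosslinks lecticans in perineuronal nets and is itself a brake on neurite growth (chr1:159351339-159759299, plus strand). Its CPM was 251, 236 and 233 with PBS, 243, 228 and 227 with fluvastatin, and 269, 280 and 219 with MBV. The groups overlapped, with MBV library 3 the lowest of all. The log2 fold change was -0.05 for fluvastatin (95% confidence interval -0.15 to 0.06) and 0.08 for MBV (-0.11 to 0.27). Without MBV library 3 the MBV value was 0.18 with an FDR of 0.0130.

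The GC content of a transcript moved with its fold change in both comparisons with PBS, which bears on these genes because most of those that rose were rich in GC. Of the genes split by GC content into 10 bins of 1395 or 1396, the bin with the lowest GC content had a median log2 fold change of -0.18 with fluvastatin and -0.19 with MBV, and the bin with the highest had 0.13 and 0.16. Between MBV and fluvastatin, the medians of all bins lay between -0.01 and 0.03. The transcript GC content was 44.0% for Vcan, 45% for Ptprz1, 47.5% for Tnr, 52.1% for Cspg5, 55.1% for Ncan, 55.2% for Acan, 57.9% for Ptprf, 59.2% for Cspg4, 59.4% for Ptprs and 61.6% for Bcan. Treatment cannot be told apart from library set here, and the source of the GC trend was not tested.

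With an offset for GC content in the fit, Ncan remained called in both comparisons, at a log2 fold change of 0.42 with fluvastatin (FDR 0.00732) and 0.61 with MBV (FDR 0.00101), and Cspg5 remained called with fluvastatin (0.28, FDR 0.0213). The offset left 2 calls with fluvastatin and 1 with MBV, where 12.2% and 20.5% of all genes were called. The receptors lost their calls, with Ptprs at 0.05 with fluvastatin (FDR 0.555) and 0.14 with MBV (FDR 0.0581) and Ptprf at 0.16 with MBV (FDR 0.0704). Bcan with MBV was at 0.28 (FDR 0.175) and Cspg5 with MBV at 0.23 (FDR 0.0534). Vcan changed little in size, at -1.46 with fluvastatin (FDR 0.0572) and -1.62 with MBV (FDR 0.0596), and passed to the other side of the threshold.

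**Figure D4:**
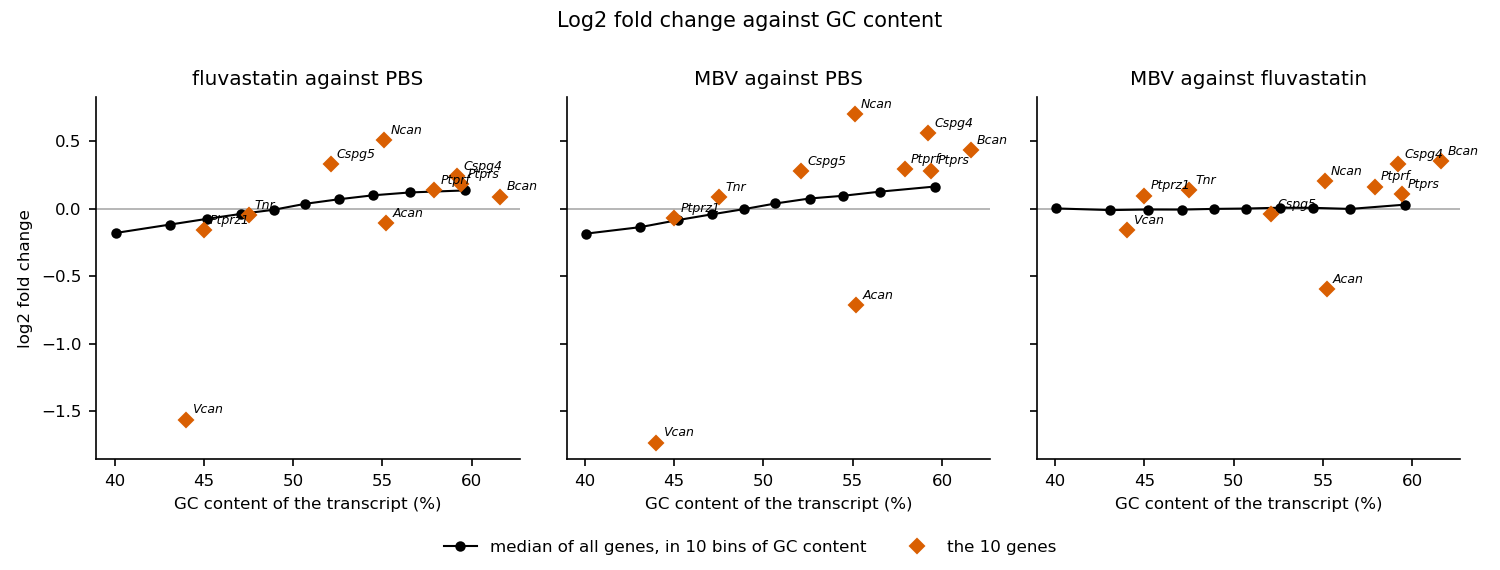
Log2 fold change against GC content of the transcript (%) in the 3 comparisons; black points joined by a line are medians of all genes in 10 bins of GC content, and orange diamonds are the 10 genes. The black line climbs from -0.18 to 0.13 and from -0.19 to 0.16 in the comparisons with PBS and is flat between MBV and fluvastatin; Ptprs, Ptprf and Tnr lie near it with fluvastatin, Ncan lies above it and Vcan far below it.

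**Figure D5:**
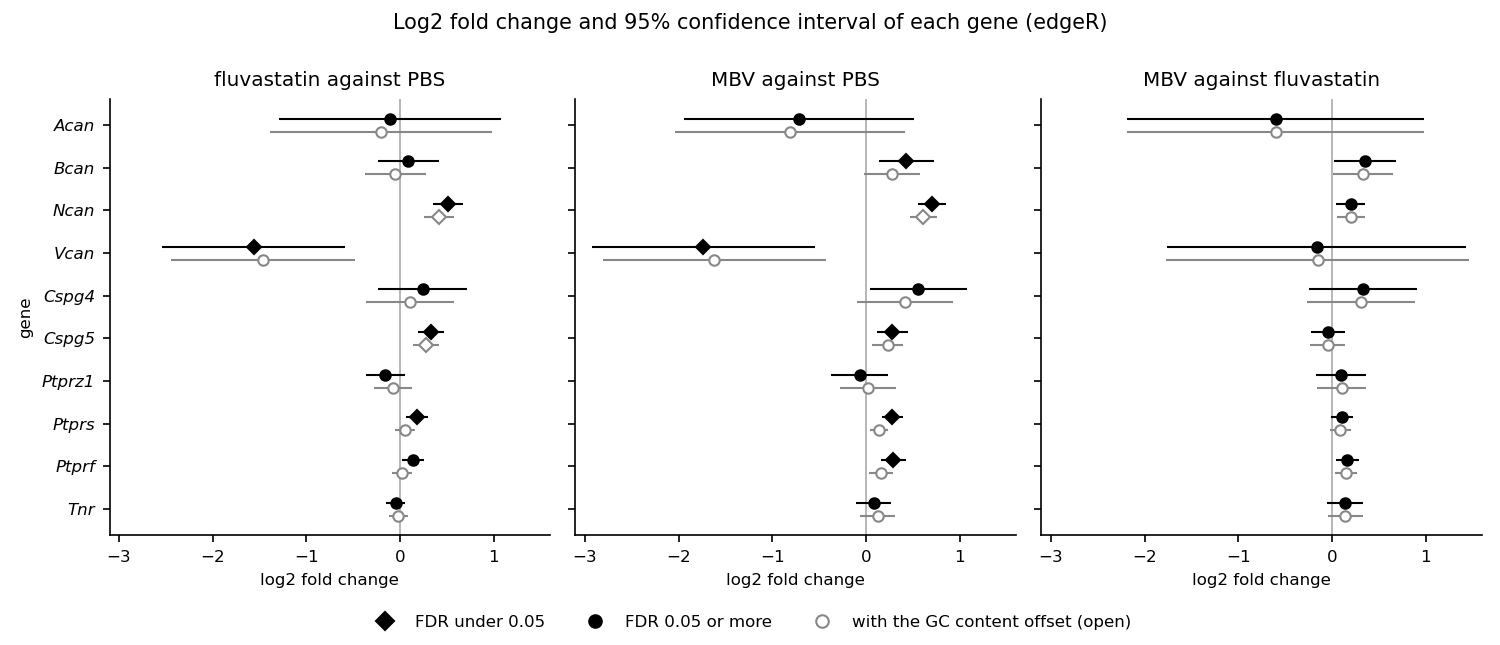
Log2 fold change with its 95% confidence interval for each gene in the 3 comparisons (edgeR); black symbols are the fit without, and open grey symbols the fit with, an offset for GC content, and diamonds mark an FDR under 0.05. Ncan is called in both fits in both comparisons with PBS, and no gene is called between MBV and fluvastatin.

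MBV and fluvastatin, which lay in 1 set of libraries and showed no GC trend, gave no call among the 10 genes with edgeR or with DESeq2, where edgeR called 0.0588% of all 18721 genes and DESeq2 0.836% of the genes to which it gave an adjusted p. At an unadjusted p under 0.05 there were 3 of 10, against 2001 of 18721 genes tested (10.7%). The 3 were Ncan, 1.15-fold higher with MBV (log2 fold change 0.20, 95% confidence interval 0.05 to 0.36, FDR 0.372), Bcan, 1.28-fold higher (0.35, 0.02 to 0.68, FDR 0.442), and Ptprf, 1.12-fold higher (0.16, 0.04 to 0.29, FDR 0.370). For these 3 genes and for Ptprs every MBV library was above every fluvastatin library, which makes 4 of 10 genes without overlap against 16.4% of all genes. The intervals were narrow for Cspg5 (-0.22 to 0.14), Ptprs (-0.01 to 0.22) and Tnr (-0.05 to 0.33), so that differences beyond those sizes were outside them, and wide for Vcan (-1.76 to 1.43) and Acan (-2.18 to 0.98). The Vcan difference was -0.16, and it was 0.90 without fluvastatin library 1 and -1.44 without MBV library 3.

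The genes whose level over the 9 libraries was most like that of each called gene are given as a description, since the points share 3 groups and 2 library sets. Ncan went with Col4a2, a basement membrane collagen (r = 0.998), and Rap1gap, an inactivator of the GTPase Rap1 (r = 0.993), and 198 genes had an r of at least 0.95 with it. Col4a2 was at 32.9, 29.0 and 33.7 CPM with PBS, 46.6, 50.9 and 46.9 with fluvastatin, and 54.5, 61.5 and 54.6 with MBV, the same order of groups as Ncan. Ptprs went with the calcium channel gene Itpr1 (r = 0.994) and with Fn1, fibronectin (r = 0.988). Ptprf went with the endocytic receptor gene Lrp1 (r = 0.978) and with Lama5, a laminin chain (r = 0.969). Cspg5 went with the adaptor gene Shc2 (r = 0.978) and with Nes (r = 0.972), and Bcan with Cbfa2t3 (r = 0.974) and Trmt1l (r = 0.970). Of these, Fn1 rose most apart from Nes, from 55.9 to 81.2 CPM with PBS to 85.9 to 128 with fluvastatin and 129 to 146 with MBV.

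Other genes of the pathway were taken from lists chosen with earlier results of these data known. None of them was called between MBV and fluvastatin. Against PBS their counts stand beside the shares of all genes given above, 9.36% higher and 10.2% lower with fluvastatin and 12% and 14.1% with MBV. Of 15 other chondroitin sulfate proteoglycans, 2 rose and 4 fell with fluvastatin, and 1 rose and 4 fell with MBV, with median log2 fold changes of -0.20 and 0.01. Spock2, testican-2, rose from 316 ± 13.7 CPM (SD, n = 3) to 428 ± 44.5 with fluvastatin (FDR 0.00260) and 434 ± 18.5 with MBV (FDR 0.000626). Tgfbr3, betaglycan, a co-receptor for TGF-β, fell from 23.1 ± 3.04 CPM to 15.2 ± 2.01 (FDR 0.00554) and 14.1 ± 2.24 (FDR 0.00368). Cspg4b, a relative of NG2, fell from 7.85 ± 0.713 CPM to 4.52 ± 0.889 with fluvastatin (FDR 0.00528) and 3.62 ± 2.03 with MBV (FDR 0.0271). With fluvastatin decorin (Dcn), a small collagen-binding proteoglycan, fell from 2.19 ± 0.326 CPM to 0.496 ± 0.305 (FDR 0.00455). Thrombomodulin (Thbd) fell with MBV from 3.90 ± 0.782 to 1.85 ± 0.628 CPM (FDR 0.0133). Testican-3 (Spock3) fell with MBV from 93.6 ± 6.26 to 79.1 ± 5.38 CPM (FDR 0.0190) and was not called with the offset (FDR 0.954). With the GC content offset the counts were 2 and 4 with fluvastatin and 2 and 3 with MBV.

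Of 23 genes that build and sulfate chondroitin chains, 22 were tested, and 3 rose and 4 fell with fluvastatin and 4 rose and 5 fell with MBV, with medians of -0.00042 and -0.03. Among the transferases that make the linker between core protein and chain, B3gat3 and B3galt6 moved in opposite directions with both agents. Xylt1, which adds the first sugar of the linker, rose with fluvastatin from 146 ± 4.03 to 166 ± 10.4 CPM (FDR 0.0324). It was not called with MBV (FDR 0.0902), nor with fluvastatin under the GC content offset (FDR 0.102). B3gat3, which adds the last sugar of the linker, rose from 42.3 ± 1.59 CPM to 55.3 ± 0.874 with fluvastatin (FDR 0.00124) and 54.7 ± 0.731 with MBV (FDR 0.00121). B3galt6, which adds the galactose before it, fell from 15.3 ± 0.363 CPM to 11.1 ± 0.752 (FDR 0.00430) and 11.1 ± 0.988 (FDR 0.00370). Csgalnact2, which starts the chondroitin chain, fell from 70.5 ± 2.48 CPM to 59.5 ± 2.61 (FDR 0.0105) and 57.0 ± 3.64 (FDR 0.00495). Its relative Csgalnact1 went the other way with MBV, from 6.31 ± 0.376 to 7.82 ± 0.224 CPM (FDR 0.0485). That rise was kept with the GC content offset (FDR 0.0447), and with fluvastatin Csgalnact1 was not called (FDR 0.49). Ust, a sulfotransferase acting on uronic acid, fell from 23.5 ± 2.74 CPM to 17.3 ± 0.545 with fluvastatin (FDR 0.00657) and 19.0 ± 0.951 with MBV (FDR 0.0277). Dsel, an epimerase that turns chondroitin into dermatan sulfate, fell from 21.4 ± 0.866 CPM to 17.4 ± 1.47 (FDR 0.0227) and 16.95 ± 1.22 (FDR 0.00828). With the GC content offset 1 rose and 3 fell with fluvastatin and 2 rose and 4 fell with MBV, and neither Csgalnact2 (FDR 0.265 and 0.0941) nor Dsel (FDR 0.248 and 0.121) was called in either.

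Of 21 genes that break down proteoglycans and hyaluronan, 5 rose and 1 fell with fluvastatin and 5 rose and 2 fell with MBV, with medians of 0.03 and 0.15. Adamts4, an aggrecanase that cuts lecticans, rose from 2.11 ± 0.401 CPM to 3.98 ± 0.332 with fluvastatin (log2 fold change 0.92, FDR 0.00612) and 5.44 ± 1.24 with MBV (1.36, FDR 0.00217). Mmp2, gelatinase A, rose from 6.88 ± 0.218 CPM to 10.2 ± 1.23 (FDR 0.00671) and 11.4 ± 0.110 (FDR 0.000678). Cemip, which depolymerises hyaluronan, rose from 13.3 ± 0.577 CPM to 16.6 ± 1.43 (FDR 0.0247) and 18.7 ± 2.13 (FDR 0.00514). The lysosomal enzyme gene Ids fell with MBV from 177 ± 12.1 to 145 ± 4.85 CPM (FDR 0.00431), and Idua rose from 10.7 ± 0.195 CPM to 13.1 ± 0.348 with fluvastatin (FDR 0.0231) and 13.4 ± 1.20 with MBV (FDR 0.0259). With the GC content offset 2 rose and none of 21 fell with fluvastatin and 4 rose with MBV, Adamts4 and Mmp2 among them in both, while Ids with MBV was at an FDR of 0.109 and Idua at 0.0957 with fluvastatin and 0.0814 with MBV.

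Of 10 partners of the hyaluronan net, Tnc, tenascin-C, rose with both agents, from 30.1 ± 3.49 CPM to 41.2 ± 5.70 with fluvastatin (FDR 0.0128) and 45.1 ± 3.15 with MBV (FDR 0.00186). Hapln4, a link protein that holds brevican on hyaluronan, rose with MBV from 6.40 ± 0.749 to 9.74 ± 1.04 CPM (FDR 0.00717). Both were kept with the GC content offset, and the medians of the list were 0.15 and 0.29. Of 13 heparan sulfate proteoglycans, 1 rose and 1 fell with fluvastatin and 2 rose and 1 fell with MBV, with medians of -0.17 for both agents. Agrn, agrin of basement membranes and synapses, rose from 94.9 ± 10.8 CPM to 125 ± 2.87 (FDR 0.00416) and 137 ± 11.8 (FDR 0.00281). Sdc2, syndecan-2, fell from 53.9 ± 1.48 CPM to 39.01 ± 4.19 (FDR 0.00247) and 38.6 ± 3.45 (FDR 0.00140). Hspg2, perlecan, rose with MBV from 17.5 ± 3.26 to 24.9 ± 3.77 CPM (FDR 0.0274) and was not called with the offset (FDR 0.0953).

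Of 16 other genes of growth inhibition, the ligands and receptors of the myelin inhibitors and their signalling, 2 rose and 4 fell with fluvastatin and 4 rose and 2 fell with MBV, with medians of -0.00013 and 0.09. Rtn4, which encodes Nogo, fell from 646 ± 14.9 CPM to 512 ± 14.8 with fluvastatin (FDR 0.00107) and 500.0 ± 21.02 with MBV (FDR 0.000820). Omg, the oligodendrocyte myelin glycoprotein that shares the Nogo receptor, fell from 23.9 ± 1.27 CPM to 19.0 ± 0.701 (FDR 0.00832) and 14.4 ± 0.195 (FDR 0.000437). Rtn4rl2, a Nogo receptor homologue, rose from 11.9 ± 0.933 CPM to 15.3 ± 1.15 (FDR 0.0195) and 16.6 ± 0.203 (FDR 0.00278). Ngfr, the neurotrophin receptor p75 that signals with the Nogo receptor, rose from 37.8 ± 1.88 CPM to 48.2 ± 4.36 with fluvastatin (FDR 0.00794) and 52.4 ± 9.73 with MBV (FDR 0.0182), and was not called with the offset (FDR 0.0655 and 0.0713). Egfr rose with MBV from 33.1 ± 0.729 to 39.5 ± 2.65 CPM (FDR 0.0168). With the GC content offset 1 rose and 1 fell with fluvastatin and 4 rose and 2 fell with MBV, and Rtn4 kept its fall in both (FDR 0.00619 and 0.00444).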

How the data were processed

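Total RNA of whole retinas was sequenced by the authors with 75-base paired-end reads and aligned to GRCm39 in CLC Genomics Grid Workbench 22; the strand setting is not given in the sources used here. The deposited values are raw counts per gene as the authors made them, with no normalization. Depth was 21349516 to 30992040 counts per library. The floor of 3 counts covers counting error only, and reads carry no molecular identifiers. Each table also holds the authors' own comparison columns (fold changes, p-values and FDRs), which were not used. In the table of the combined treatment, 6 per-sample count columns name no library and were not used, so the planned tests with the combined treatment were not run. Where a named library occurs in more than 1 table, its counts were the same in each.

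Genes with at least 1 count in the 6 libraries of a comparison were tested in R 4.3.3 with edgeR 4.0.16 (TMM, quasi-likelihood, Benjamini-Hochberg over all genes). The CPM values came from 1 TMM scaling over all 9 libraries. Exon length was the union of exons in GENCODE mouse release 39, in which 25493 gene IDs were found, and GC content that of the longest coding transcript. Alternatives were DESeq2 1.42.0, library totals, a minimum of 10 counts in 2 libraries, all 9 libraries in 1 fit, a replicate block, each library left out, a fold minimum of 2 and, added after the data were seen, an offset per library from a lowess fit (span 0.2) on GC content. The fits with and without the GC content offset were also run on simulated counts with the same dispersion for every gene. Genes with a spread as wide as that of Vcan were thus not covered there. Python 3.11.15 with pandas 2.3.3 was used for the rest. The genes, lists and tests were chosen with earlier results of these data known. Named in the text are all 10 genes, up to 4 called genes of each list and comparison by smallest p, and the 2 genes most like each called gene in log2(CPM + 0.5). Csgalnact1 and Xylt1 are named beyond that rule. No overlapping gene was annotated for Bcan, Cspg4 and Ptprz1. For the rest, most overlapping or antisense genes have no counts of their own, so their reads cannot be told apart from those of the listed genes. Those with counts of their own, Gm43622 in Cspg5 and Gm37731 in Tnr, had a mean count of 0, rounded down.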

Additional observations from a re-analysis of the deposited data

How the results depend on the processing

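The count of 4 calls with fluvastatin was 3 with DESeq2 and with all 9 libraries in 1 fit, 4 with library totals and with the low-count filter, 2 with the GC content offset, 1 with a fold minimum of 2, and 2 to 5 with a library left out. The count of 6 with MBV was 4 with DESeq2, 5 with all 9 libraries, 6 with library totals and with the filter, 1 with the GC content offset, 1 with a fold minimum of 2, and 3 to 6 with a library left out. Between MBV and fluvastatin it was 0 throughout. A fit with a library left out rests on 5 libraries. The summed level of the 10 genes was 1063.6 CPM with TMM and 1064.3 CPM with library totals, a difference under the SD between libraries.

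Vcan was lost with DESeq2 (adjusted p 0.0930 with fluvastatin and 0.0876 with MBV) and with all 9 libraries (FDR 0.104 and 0.0625), and Bcan with MBV was lost with DESeq2; the cause was not tested. Signs turned only for genes that were not called. Bcan with fluvastatin was -0.051 and Ptprz1 with MBV 0.023 with the GC content offset. With a library left out, Acan with fluvastatin ranged from -0.96 to 0.22 (positive values 0.02, 0.15 and 0.22), Ptprz1 with MBV from -0.18 to 0.072 (positive 0.0036 and 0.072), and, between MBV and fluvastatin, Acan from -1.36 to 0.26, Vcan from -1.44 to 0.90 (positive 0.20, 0.22 and 0.90) and Cspg5 from -0.11 to 0.032. DESeq2 gave no adjusted p for Acan in 2 comparisons.

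The replicate numbers did not pair the libraries. Deviations of same-numbered libraries correlated at 0.0329, -0.0253 and 0.19 for fluvastatin and PBS, at -0.00451, -0.0328 and 0.0165 for MBV and PBS, and at -0.172, 0.023 and -0.429 for MBV and fluvastatin. With a replicate block the counts of calls were 4, 4 and 0, and Bcan (FDR 0.0694) and Cspg5 (FDR 0.0568) with MBV were not called. The alternatives planned for the combined treatment were not run, since its libraries were not analysed.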
